A study of Mus musculus with 16 samples.

Results

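Transcript levels of 8 regulators of tubular cell state were followed in mouse kidney after ischemia reperfusion (IR), surgery in which renal blood flow is stopped and then restored. Hnf4a, Ppara, Ppargc1a and Esrra stand for proximal tubule identity and oxidative metabolism, and Pax2, Pax8, Sox4 and Sox9 for the kidney's embryonic and repair programme. The 8 genes were taken by name, through the Ensembl identifiers of their rows, out of 40472 genes in the deposited table. All 8 were among the 13614 genes with enough counts to be tested. Sox9 reached that level only through the injured groups. All mice were 12-week-old male C57BL/6 mice, and whole kidney was sequenced as poly(A) RNA, with 4 libraries per group. The IRP group had IR and received PJ34, an inhibitor of poly(ADP-ribose) polymerases, and the IRV group had IR and received vehicle. The NP group had no IR and received PJ34, and the NV group had no IR and received vehicle. The study's stated aim was the longer-term effect of PJ34 after IR. Neither a collection day nor a separate animal for each replicate is stated in the labels, so the spread behind every p-value is that between libraries and may be technical.

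HNF4A is a nuclear receptor that keeps the proximal tubule cell differentiated and drives its transporter genes. PPAR alpha, encoded by Ppara, switches on fatty acid oxidation, the main fuel of this cell. PGC-1 alpha, the coactivator encoded by Ppargc1a, and its partner ERR alpha, the orphan nuclear receptor encoded by Esrra, switch on mitochondrial genes. PAX2 and PAX8 are paired-box factors that build the embryonic nephron. SOX9 and SOX4 are HMG-box factors of the developing kidney, and SOX9 is known for its return in tubule cells that divide or repair after injury.

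Total counts were 4963638 to 6169748 in 6 deep libraries, namely the whole IRP group and IRV replicates 3 and 4. They were 973812 to 1659983 in 10 shallow libraries, namely IRV replicates 1 and 2 and the whole NP and NV groups. Genes of the olfactory and other chemosensory receptor families summed to 222 to 468 CPM (counts scaled to a common library size) in deep libraries and 5851 to 10300 CPM in shallow ones. The library set therefore separates all IRP from all NP libraries, and in that comparison set and injury can be told apart only through the IRV group. CPM values here rest on TMM-scaled library sizes. Differences are log2 fold changes with their standard error (SE) from the quasi-likelihood test of edgeR, called at a Benjamini-Hochberg adjusted p under 0.05 over all tested genes. The injury labels were checked with Havcr1, the tubular injury molecule KIM-1, which was at 65.2 ± 41.5 CPM in IRP and 2.74 ± 1.37 CPM in NP (SD, n = 4 each), and at 110.5 ± 24.2 CPM in IRV and 5.63 ± 4.22 CPM in NV.

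Hnf4a, the identity factor of the proximal tubule, fell in injured kidney under either treatment. Hnf4a was at 377.6, 572.5, 446.9 and 343.4 CPM in IRP replicates 1 to 4, against 665.9, 761, 682.9 and 652.1 CPM in NP. In the vehicle groups it was at 310.4, 399.9, 412.9 and 454.1 CPM in IRV, against 769.4, 674.3, 677.1 and 820 CPM in NV. Under TMM scaling, all 8 injured libraries lay below all 8 uninjured ones. Against library totals alone they overlapped, with 3160 counts of 5205900 in IRP replicate 2 and 705 of 1393716 in NV replicate 2. Hnf4a fell by 0.67 ± 0.16 on the log2 scale in IRP against NP (adjusted p = 0.00255, edgeR). It fell by 0.89 ± 0.16 in IRV against NV (adjusted p = 0.000567). With the library set added to the model, these log2 fold changes were -0.95 (adjusted p = 0.0474) and -1.05 (adjusted p = 0.00159). Scaled by library totals alone, neither fall was called (adjusted p = 0.622 in IRP against NP and 0.0949 in IRV against NV, edgeR).

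Relative to the genes of the cell it specifies, Hnf4a overlapped between injured and uninjured kidney. In a list of 30 proximal tubule differentiation genes, 24 fell and 1 rose in IRP against NP, with a median log2 fold change of -0.84. In IRV against NV, 27 fell and none rose, with a median of -0.95. That is 83.3% and 90% of the list called, where 43.6% and 27% of all tested genes were. With the library set in the model 3 and 23 genes of this list were called, and under scaling by library totals 5 fell and 1 rose in IRP against NP and 9 fell and 1 rose in IRV against NV. Slc34a1, the phosphate transporter that marks the proximal tubule, was at 1696 ± 464 CPM in IRP and 3179 ± 339 CPM in NP (SD, n = 4 each). It was at 1483 ± 254 CPM in IRV and 3212 ± 286 CPM in NV. Per 100 counts of the whole list, Hnf4a had 2.22 ± 0.378 counts in IRP and 2.17 ± 0.128 in NP. It had 2.2 ± 0.21 in IRV and 2.3 ± 0.227 in NV, so all 4 groups overlapped on this ratio. A large part of the list sum came from Kap, at 6153 CPM in IRV and 8774 CPM in NV. Without Kap, Hnf4a had 3.26 ± 0.549 counts in IRP and 2.935 ± 0.116 in NP. It then had 3.345 ± 0.304 in IRV and 3.16 ± 0.247 in NV, still with overlap and with the means higher in the injured groups. In whole kidney, fewer cells of a type and less RNA per cell cannot be told apart, and this holds for every member.

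An antisense transcript, Hnf4aos, is annotated at the Hnf4a locus. It had 0 to 13 counts per library and Hnf4a 302 to 3551; the sources used here do not state whether strand was used in counting.

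Esrra, the orphan receptor of mitochondrial genes, fell in both injury comparisons. It was at 37.8, 50.9, 40.2 and 39.8 CPM in IRP, against 59.6, 81.1, 45.7 and 59.4 CPM in NP. The groups overlapped, through IRP replicate 2 and NP replicate 3. In IRV it was at 33.9, 43.1, 33.2 and 38.5 CPM, against 71.8, 54.5, 65.7 and 64.1 CPM in NV, without overlap under TMM scaling. The log2 fold changes were -0.56 ± 0.15 in IRP against NP (adjusted p = 0.00748, edgeR) and -0.79 ± 0.16 in IRV against NV (adjusted p = 0.00171). The IRP call was lost without NP replicate 2 (adjusted p = 0.0539) and with the library set in the model (-0.44, adjusted p = 0.434), while the IRV call held with it (-0.71, adjusted p = 0.0314). Per 100 counts of Hnf4a, Esrra had 9.87 ± 1.25 counts in IRP and 8.85 ± 1.63 in NP (SD, n = 4 each), and 9.56 ± 1.51 in IRV and 8.74 ± 0.926 in NV.

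Ppargc1a was lower by a smaller amount. It was at 62, 88.1, 68.6 and 74.1 CPM in IRP, against 94.2, 101.9, 85.9 and 105.4 CPM in NP. It was at 61.7, 68.7, 68.4 and 73.7 CPM in IRV, against 105.2, 85.1, 72 and 90.3 CPM in NV. IRP replicate 2 reached into the NP range, and IRV replicate 4 into the NV range. Ppargc1a fell by 0.41 ± 0.13 on the log2 scale in IRP against NP (adjusted p = 0.0152, edgeR) and by 0.36 ± 0.13 in IRV against NV (adjusted p = 0.0497). Both calls were lost with the library set as a covariate (adjusted p = 0.218 and 0.11), and the IRV call was lost without any of IRV replicates 1 and 3 and NV replicates 1, 2 and 4 (adjusted p 0.0705 to 0.115). The IRP call was lost without IRP replicate 1 (adjusted p = 0.0666).

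Ppara passed the test in neither comparison. It was at 20.4, 37.1, 29.7 and 19.6 CPM in IRP, against 25, 38.7, 32.6 and 28.9 CPM in NP, with overlapping groups. It was at 14.4, 21.3, 22.1 and 30.3 CPM in IRV, against 34.2, 32.5, 36.9 and 33.2 CPM in NV. Under TMM scaling, every injured library here lay below every uninjured one. The log2 fold changes were -0.24 ± 0.22 (IRP against NP, adjusted p = 0.406, edgeR) and -0.55 ± 0.23 (IRV against NV, adjusted p = 0.0866). IRV replicate 4 decided the second call, since without it the value was -0.84 (adjusted p = 0.0236). Within the shallow libraries Ppara was also called in IRV against NV (adjusted p = 0.0188).

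**Figure D1:**
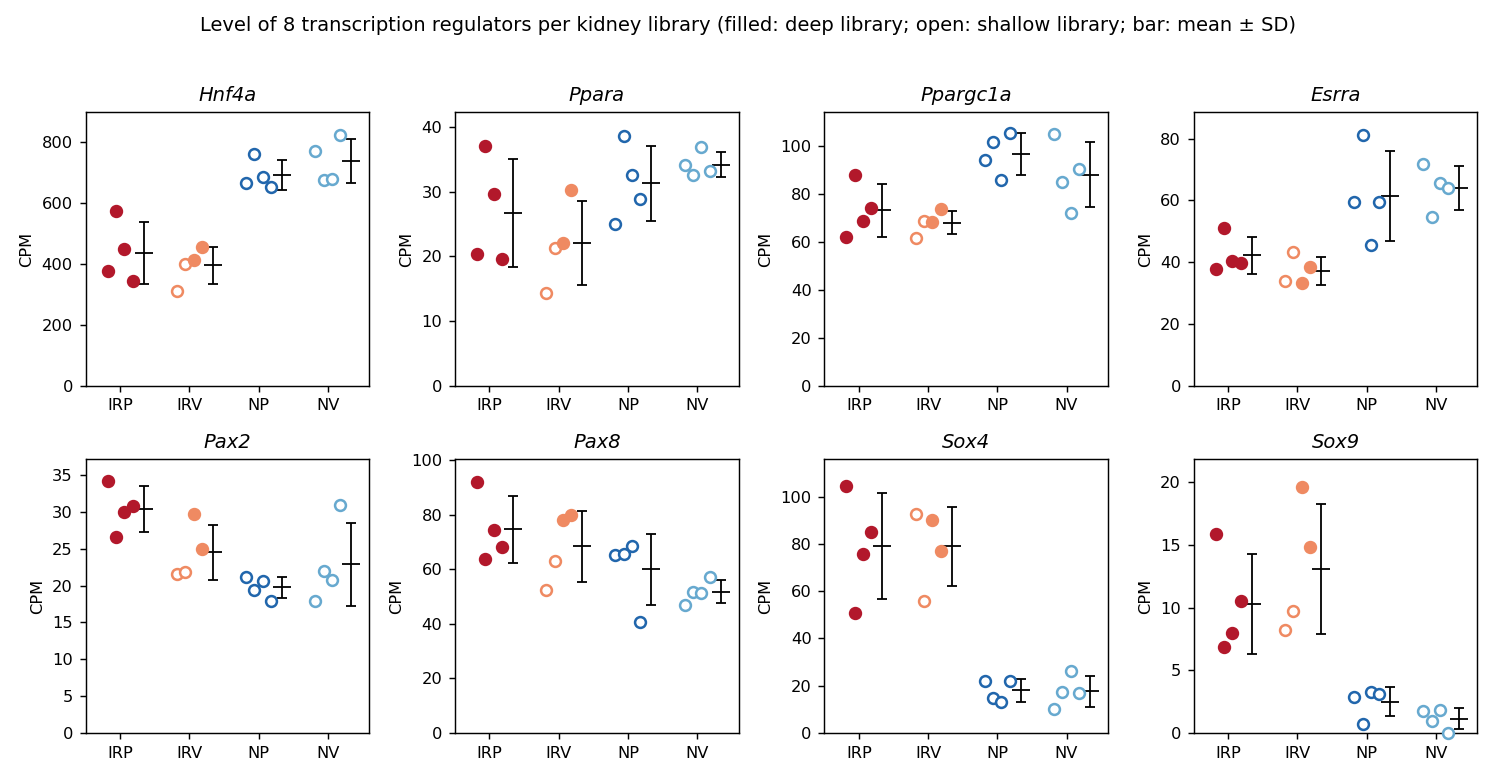
Levels of the 8 regulators in CPM, in linear panels from 0, with 1 point per library (filled for deep, open for shallow libraries) and the mean ± SD of 4 libraries per group. In the first panel Hnf4a lies lower in every injured library than in any uninjured one, under TMM scaling, and Sox4 and Sox9 lie higher, while Pax2 and Pax8 overlap.

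Sox4 rose most clearly among the repair factors. It was at 104.6, 50.7, 75.8 and 85.1 CPM in IRP, against 22.1, 14.9, 13.1 and 21.9 CPM in NP. It was at 92.5, 55.9, 90.3 and 77.1 CPM in IRV, against 10.3, 17.2, 26.1 and 17 CPM in NV. The lowest injured library, IRP replicate 2, was still above the highest uninjured one, NV replicate 3. The log2 fold changes were 2.13 ± 0.27 in IRP against NP (adjusted p = 3.33e-05, edgeR) and 2.17 ± 0.27 in IRV against NV (adjusted p = 3.7e-05). In the model with the library set they were 1.92 (adjusted p = 0.0136) and 2.04 (adjusted p = 0.000515).

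The promoter of Sox4 is shown because this gene had the largest change among members with counts in every library. The 250 bases before its start are chr13:28953700-28953949 on the minus strand of GRCm38.p6, from RefSeq's promoter table, with capitals on each CCAAT motif, the letters bound by the general factor NF-Y, on either strand.
Sox4: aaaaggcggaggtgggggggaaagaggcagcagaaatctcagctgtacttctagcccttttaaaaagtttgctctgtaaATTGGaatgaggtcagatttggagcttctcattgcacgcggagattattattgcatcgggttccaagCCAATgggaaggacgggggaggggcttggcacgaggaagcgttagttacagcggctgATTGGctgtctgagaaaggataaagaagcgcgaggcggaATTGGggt
The 4 motifs lie 171, 104, 47 and 8 bases before the start. At least 1 CCAAT was found in 33.8% of the 32851 windows, and at least 4 in 276 of them, or 0.84%.

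Sox9, the factor known for its return in repairing tubules, rose in both comparisons over counts close to 0 in uninjured kidney. It was at 15.8, 6.88, 7.93 and 10.5 CPM in IRP, against 2.88, 0.744, 3.26 and 3.12 CPM in NP. It was at 8.22, 9.72, 19.6 and 14.8 CPM in IRV, against 1.71, 0.956, 1.8 and 0 CPM in NV, where a count of 0 in replicate 4 allows up to 2.32 CPM. Injured and uninjured libraries did not overlap. The 4 libraries together held 289 Sox9 counts in IRP and 11 in NP, and 278 in IRV and 5 in NV. The ratio of summed counts, scaled by library size, was 4.48 for IRP over NP (95% interval 2.47 to 9.08, exact, counting error only) and 14.7 for IRV over NV (6.22 to 45.6). In edgeR the log2 fold changes were 2.08 ± 0.49 (adjusted p = 0.00263) and 3.63 ± 0.56 (adjusted p = 0.000225). Sox9 passed the count filter only through the injured groups, so the filter favoured a rise and these p-values describe more than they test. The IRP call was lost with the library set as a covariate (1.18, adjusted p = 0.384), while the IRV call held (3.03, adjusted p = 0.00691). With limma-voom neither was called (adjusted p = 0.178 for IRP against NP and 0.096 for IRV against NV).

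Pax2, the embryonic paired-box factor, rose in IRP against NP and was not called in IRV against NV. It was at 34.2, 26.6, 30 and 30.8 CPM in IRP, against 21.1, 19.3, 20.7 and 18 CPM in NP, without overlap. It was at 21.6, 21.9, 29.7 and 24.9 CPM in IRV, against 18, 22, 20.7 and 30.9 CPM in NV, with NV replicate 4 the highest of these 8. The log2 fold changes were 0.63 ± 0.16 (IRP against NP, adjusted p = 0.00497, edgeR) and 0.13 ± 0.16 (IRV against NV, adjusted p = 0.577). The test of the difference, the interaction of PJ34 with injury, was 0.50 (unadjusted p = 0.0471, adjusted p = 0.428) and did not pass. The IRP call was lost in the model with the library set (0.30, adjusted p = 0.63).

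Pax8 was called in neither comparison. It was at 92.1, 63.9, 74.5 and 68.2 CPM in IRP, against 65.3, 65.5, 68.5 and 40.6 CPM in NP. It was at 52.4, 63.2, 78.2 and 79.9 CPM in IRV, against 47, 51.6, 51.3 and 57.1 CPM in NV. The groups overlapped in both comparisons, with log2 fold changes of 0.32 ± 0.17 (IRP against NP, adjusted p = 0.129, edgeR) and 0.43 ± 0.17 (IRV against NV, adjusted p = 0.0735). IRV replicate 1, a shallow library, decided the call in the vehicle groups, since without it the value was 0.53 (adjusted p = 0.0247). With the library set in the model the values were -0.11 in IRP against NP (adjusted p = 0.881) and 0.17 in IRV against NV (adjusted p = 0.66). Within the shallow libraries Pax8 was at 0.17 in IRV against NV (adjusted p = 0.688).

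**Figure D2:**
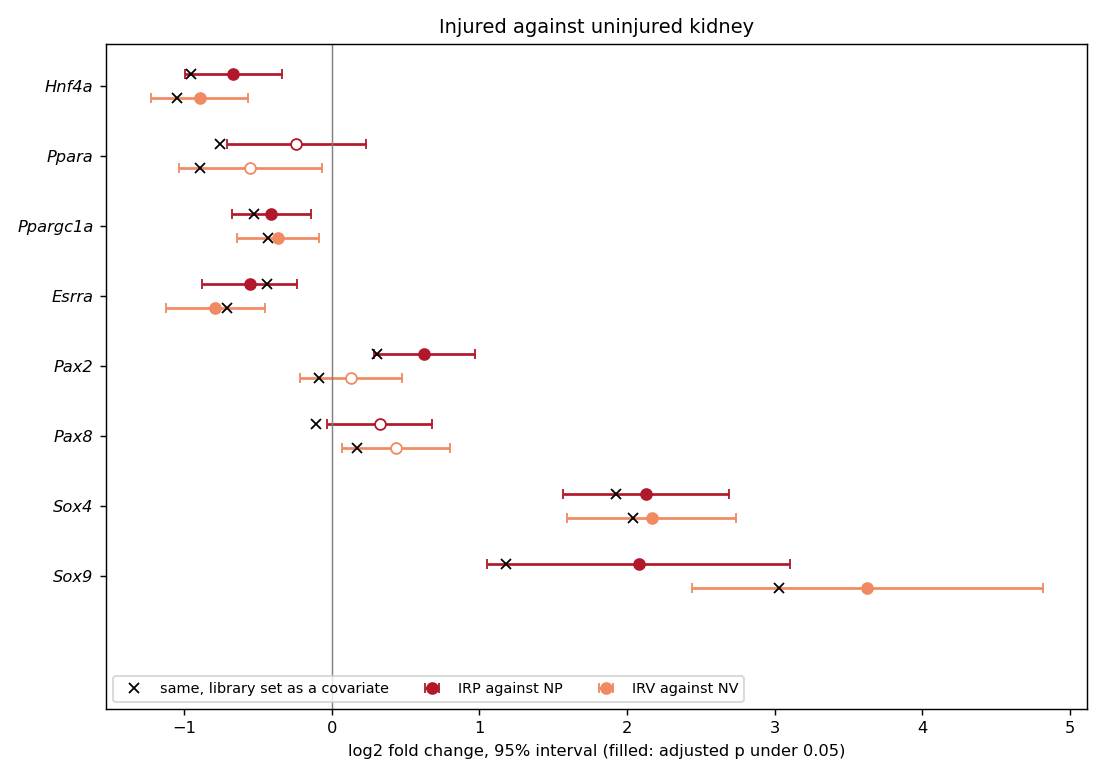
Log2 fold changes of the 8 regulators in injured over uninjured kidney, IRP over NP above IRV over NV, with 95% intervals from the edgeR fit on TMM-scaled counts (filled where the adjusted p was under 0.05) and crosses for the fit with the library set as a covariate. Sox4 and Sox9 stand at 2.08 to 3.63, and Hnf4a at -0.67 and -0.89. In IRP against NP the crosses of Esrra, Pax2, Pax8, Sox4 and Sox9 lie nearer to or past 0. Those of Hnf4a, Ppara and Ppargc1a lie farther from 0 there.

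Scaling by library totals alone, without TMM, moved the median log2 fold change of all tested genes to 0.57 in IRP against NP and 0.49 in IRV against NV. Relative to that median, Hnf4a stood at -0.68 and -0.88, Ppara at -0.26 and -0.51, Ppargc1a at -0.42 and -0.34, and Esrra at -0.56 and -0.77. Pax2 stood at 0.65 and 0.17, Pax8 at 0.36 and 0.47, Sox4 at 2.17 and 2.2, and Sox9 at 2.12 and 3.68. This correction takes out a shift shared by all genes, so nearness to the TMM values is no separate support. Taken without that correction, Hnf4a was at -0.10 (adjusted p = 0.622, edgeR) in IRP against NP and -0.38 (adjusted p = 0.0949) in IRV against NV, and both calls were lost. Ppargc1a turned to 0.16 and 0.15. Esrra turned to 0.02 in IRP against NP and was at -0.28 (adjusted p = 0.204) in IRV against NV. Under that scaling the 4 repair factors were called higher and no member lower in each comparison. DESeq2's size factors left every call of the TMM scaling in place. Without a filter on low counts, the median was that of all 40472 genes. Relative to it, Hnf4a stood at 0.85 in IRP against NP and -0.27 in IRV against NV, and Ppara at 1.28 and 0.096. Ppargc1a then stood at 1.11 and 0.26, and Esrra at 0.96 and -0.16. The 4 repair factors stood at 1.84 to 3.64 and at 0.77 to 4.28.

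Counted over the 8 members, IRP against NP called 3 higher and 3 lower, where 43.6% of all tested genes were called (19.6% higher, 24% lower). IRV against NV called 2 higher and 3 lower, where 27% were called (15.9% higher, 11.1% lower). In both comparisons the lower ones were Hnf4a, Ppargc1a and Esrra, and the higher ones included Sox4 and Sox9. Sox9 was tested only through its counts in the injured groups, and it also enters the counts without overlap and the medians that follow. In TMM-scaled CPM, the groups were without overlap for 4 of 8 members in IRP against NP, where 40.8% of all tested genes were. They were so for 5 of 8 in IRV against NV, where 26.9% were. The median log2 fold change of the 4 identity and metabolic factors was -0.48 in IRP against NP and -0.67 in IRV against NV. That of the 4 repair factors was 1.35 and 1.3, and that of all tested genes -0.01 and -0.03. The repair median fell in a gap, with Pax2 and Pax8 at 0.13 to 0.63 and Sox4 and Sox9 at 2.08 to 3.63. With 8 members, these shares describe the members and are no test of them.

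Ratios of counts within a library do not depend on how libraries are scaled, and as they are not corrected for transcript length only their change between groups can be read. Per 100 counts of Hnf4a, Sox4 had 27.7, 8.86, 17 and 24.8 counts in IRP, against 3.32, 1.96, 1.91 and 3.35 in NP. It had 29.8, 14, 21.9 and 17 in IRV, against 1.33, 2.55, 3.86 and 2.07 in NV. The lowest injured value, in IRP replicate 2, was above the highest uninjured one. Pax8 had 18 ± 5.56 counts per 100 of Hnf4a in IRP and 8.67 ± 1.74 in NP, and 17.3 ± 1.32 in IRV and 7.08 ± 0.716 in NV (SD, n = 4 each). Pax2 had 7.35 ± 2.1 in IRP and 2.87 ± 0.282 in NP, and 6.28 ± 0.923 in IRV and 3.11 ± 0.594 in NV. For Pax8, which did not pass the test alone, every injured library lay above every uninjured one on this ratio. Such a ratio moves with Hnf4a as well, and metabolic factors also separated on it in part. Ppargc1a had 16.2 to 19.9 counts per 100 of Hnf4a in IRV and 10.6 to 13.7 in NV, without overlap, and 15.4 to 21.6 in IRP and 12.6 to 16.2 in NP, with overlap. Ppara had 5.41 to 6.64 in IRP and 3.75 to 5.08 in NP, without overlap, and 4.64 to 6.67 in IRV and 4.05 to 5.45 in NV, with overlap.

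**Figure D3:**
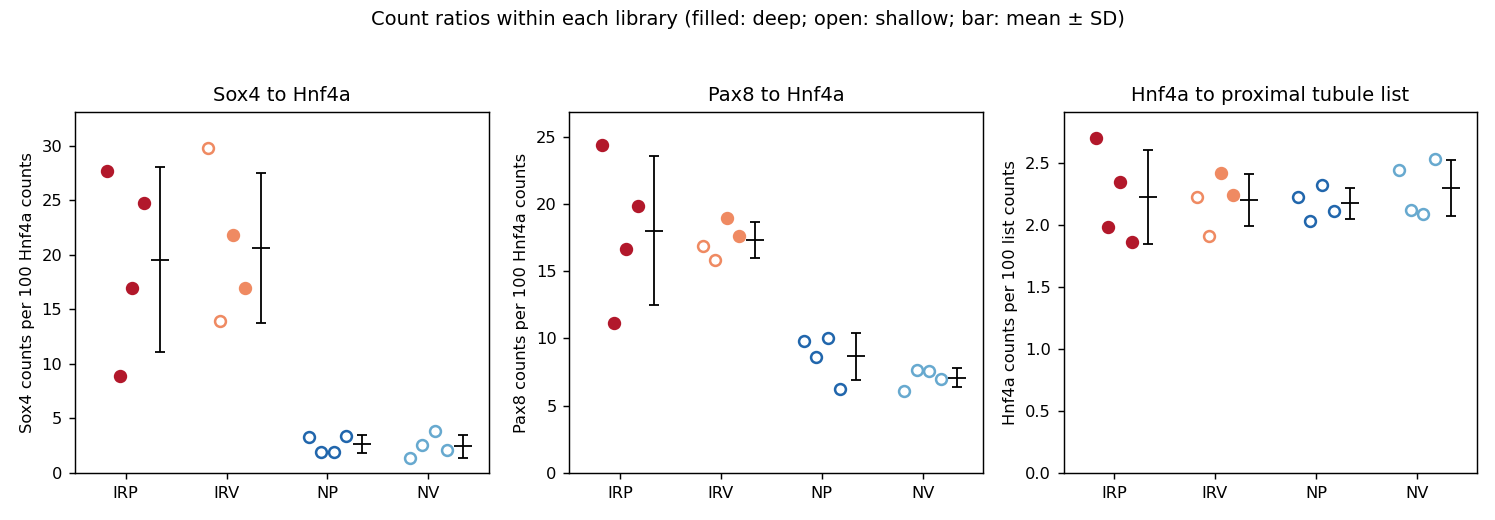
Counts of Sox4 and of Pax8 per 100 counts of Hnf4a, and of Hnf4a per 100 counts of the 30 proximal tubule genes, in each library (filled for deep, open for shallow) with the mean ± SD of 4 libraries, on linear axes from 0. The ratios to Hnf4a separate injured from uninjured libraries, and Hnf4a over the list, at 2.22 in IRP, 2.2 in IRV, 2.17 in NP and 2.3 in NV, does not.

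None of the 8 members was called between PJ34 and vehicle, in injured or in uninjured kidney. In IRP against IRV, 0% of all tested genes were called by edgeR, although 1832 genes had an unadjusted p under 0.05, and DESeq2 called 1282 and limma-voom 0. Of the DESeq2 calls 1277 were lower in IRP and 5 higher. With 1 library left out, edgeR called 1460 genes without IRV replicate 3 (1451 lower) and 1460 without IRV replicate 4 (1447 lower). It called 0 without any other library of these groups. All IRP libraries were deep, while IRV replicates 1 and 2 were shallow, so the library set is partly mixed with PJ34 here. The part of each in these calls was not tested. The 95% intervals of the members' log2 fold changes were -0.19 to 0.46 for Hnf4a, -0.25 to 0.63 for Ppara, -0.17 to 0.35 for Ppargc1a and -0.13 to 0.50 for Esrra. They were -0.03 to 0.57 for Pax2, -0.24 to 0.43 for Pax8, -0.45 to 0.46 for Sox4 and -1.14 to 0.30 for Sox9. Sox4 averaged 79.1 ± 22.4 CPM in IRP and 79.0 ± 16.8 CPM in IRV (SD, n = 4 each). No member was without overlap between these groups, where 3.42% of all tested genes were.

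In NP against NV, 0% of all tested genes were called, with 501 at an unadjusted p under 0.05, 4 called by DESeq2 and 0 by limma-voom. Sox9 had the widest interval, -0.49 to 2.75 around a log2 fold change of 1.13, from 11 counts in NP and 5 in NV. No member was without overlap between NP and NV, where 2.43% of all tested genes were. The interaction of PJ34 with injury called 0% of all tested genes in edgeR, with 1550 at an unadjusted p under 0.05, 22 called by DESeq2 (21 of them negative) and 0 by limma-voom. Without IRV replicate 3, edgeR called 419. For Sox9 the interaction was -1.55 ± 0.84 (adjusted p = 0.528, edgeR), and the difference did not pass the test.

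The injured libraries also differed among themselves. Among the 28 pairs of members in the 8 injured libraries and the 28 in the 8 uninjured ones, 56 relations in all, 1 passed adjustment. Hnf4a and Ppara ran together across the injured libraries with a Pearson r of 0.965 (exact permutation p = 0.000248, adjusted 0.0139) and a Spearman rho of 1.0 (p = 4.96e-05, the smallest that 8 libraries can give, adjusted 0.00278). Without IRP replicate 2 and IRV replicate 1, the farthest in Hnf4a, r was 0.906, and within the 6 deep libraries it was 0.955. In the uninjured libraries r was 0.49 (exact permutation p = 0.215). Esrra and Sox4 ran in opposite directions across the injured libraries, with r = -0.853 and rho = -0.881 (exact permutation p = 0.00667 and 0.00724, adjusted 0.187 for r), which does not pass. IRP replicate 2 had the highest Hnf4a, Ppara, Ppargc1a and Esrra of the injured libraries and the lowest Sox4 and Sox9.

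**Figure D4:**
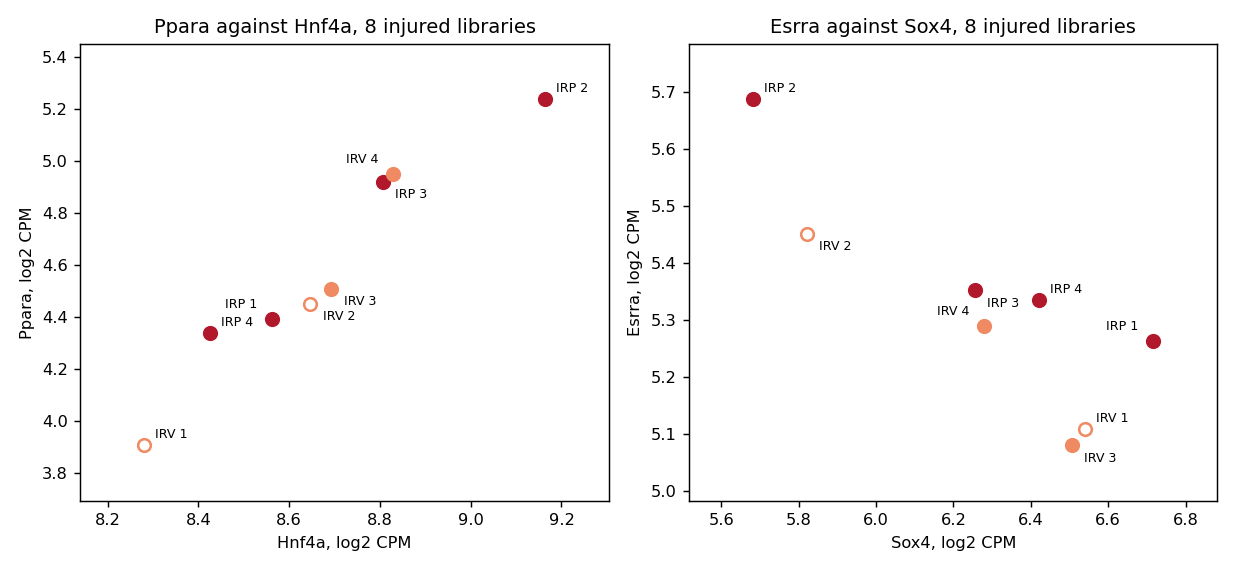
Log2 CPM of Ppara against Hnf4a (left) and of Esrra against Sox4 (right) in the 8 injured libraries, IRP in red and IRV in orange, filled for deep and open for shallow libraries. Ppara follows Hnf4a in rank order through all 8 points (rho = 1.0), and IRP replicate 2 has the highest Hnf4a and Ppara on the left and the highest Esrra and lowest Sox4 on the right.

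The genes whose log2 CPM ran closest to each member were taken over all 16 libraries, as a description that the injury contrast dominates. Closest to Hnf4a were Cldn2 (Pearson r 0.976), the claudin of the leaky proximal tubule junction, Ak4 (0.975) and Aass (0.974), a lysine-degrading enzyme. Esrra ran with Uqcrfs1 (0.981), the iron-sulfur subunit of respiratory complex III, Atp5g1 (0.959), a subunit of ATP synthase, and Pth1r (0.956), the parathyroid hormone receptor. Ppargc1a ran with Nipsnap1 (0.95), Auh (0.934) and Idh2 (0.933), a mitochondrial isocitrate dehydrogenase. Ppara ran with Prss8 (0.946), Pipox (0.943) and Slc3a1 (0.939), which encodes a cystine transporter subunit of the proximal tubule. Sox4 ran with Nes (0.989), the intermediate filament nestin, Sema3c (0.983) and Ifngr1 (0.98). Sox9 ran with Ktn1 (0.96), Cd68 (0.957), a macrophage marker, and Adcy7 (0.95). The closest values were lower for Pax2 (Trip6 0.918, Nop53 0.911, Tubb2a 0.901) and Pax8 (Smad5 0.892, Ppp1r9b 0.883, Obsl1 0.881).

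Under TMM scaling, other transcription factors of the nephron were called in both directions, in shares below those of all tested genes. Of 24 tested nephron segment factors, 5 rose and 2 fell in IRP against NP and 3 rose and 2 fell in IRV against NV, with medians of -0.04 and 0.03. The shares called were 29.2% and 20.8%, against 43.6% and 27% of all tested genes. Ehf, an ETS factor of collecting duct epithelium, rose by 1.69 ± 0.16 in IRP and by 1.47 ± 0.16 in IRV on the log2 scale (adjusted p = 5.9e-06 and 1.21e-05, edgeR). Foxi1, the factor of intercalated cells, rose by 1.13 ± 0.23 in IRP. Lhx1, a LIM factor of the early nephron, fell by 1.08 ± 0.30 in IRV, as did Maf by 0.58 ± 0.16. Hnf4g, the paralog of Hnf4a, had 0.02 ± 0.41 in IRV against NV and was not called. Of 23 tested nuclear receptors and mitochondrial regulators, 4 rose and 4 fell in IRP and 2 rose and 4 fell in IRV, or 34.8% and 26.1% called. Esrrb, the paralog of Esrra, fell by 1.25 ± 0.35 in IRP and by 1.19 ± 0.37 in IRV, and Thra, a thyroid hormone receptor, rose by 0.87 ± 0.20 and 0.87 ± 0.21. Adding the library set to the model left 1 called gene of each of these 2 lists in each comparison. Under scaling by library totals nearly all calls were rises, with 11 rises in IRP against NP, 12 in IRV against NV and no fall among the nephron segment factors. Among the nuclear receptors and mitochondrial regulators, 13 then rose and 1 fell in IRP against NP, and 10 rose and none fell in IRV against NV.

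Among 28 repair and dedifferentiation factors, 19 were tested. Of these, 7 rose and 1 fell in IRP against NP, and 8 rose and none fell in IRV against NV, with medians of 0.65 and 0.68. Foxm1, at 1.35 CPM in NV and 6.41 CPM in IRV, was too low in NV to pass the count filter there. The filter can keep factors that are high only in the injured groups, so these counts and medians can lean towards rises. Klf6, a zinc-finger factor induced by injury, rose by 2.04 ± 0.25 in IRP and by 1.58 ± 0.24 in IRV on the log2 scale (adjusted p = 2.67e-05 and 0.000191, edgeR). Elf3, an epithelial ETS factor, rose by 1.68 ± 0.38 and 1.71 ± 0.39, and Zeb2, a repressor of epithelial genes, by 1.18 ± 0.19 and 1.28 ± 0.19. Creb5 was the member that fell in IRP, by 1.11. Sox11, the close relative of Sox4, had 0.13 ± 0.47 in IRP against NP and was not called. As a group these factors were called in 42.1% of tested members in either comparison, against the 43.6% (IRP against NP) and 27% (IRV against NV) of all tested genes given above. Nearly all of these factors' calls were rises. Of all tested genes, 19.6% were higher and 24% lower in IRP against NP, and 15.9% and 11.1% in IRV against NV. Adding the library set to the model left 1 of the 19 factors called in IRP against NP and 5 in IRV against NV. Under scaling by library totals, 15 rose in IRP against NP and 14 in IRV against NV, and none fell.

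Under TMM scaling, the target genes of ERR alpha and PGC-1 alpha were mostly lower, and those of PPAR alpha were mostly not called. Of 24 tested target genes of ERR alpha and PGC-1 alpha, mostly respiratory chain and citric acid cycle enzymes, 21 fell and 1 rose in IRP against NP, or 91.7% called, where 43.6% of all tested genes were. In IRV against NV 23 fell and 1 rose, or 100% called, where 27% were. The medians were -0.50 and -0.77. Mdh2, malate dehydrogenase, fell by 0.76 ± 0.12 in IRP, Cycs, cytochrome c, by 0.88 ± 0.18, and Cox6a1, a cytochrome oxidase subunit, by 0.96 ± 0.15 in IRV. Ucp2, a mitochondrial uncoupling protein, was the member that rose in both, by 1.62 ± 0.21 in IRP and 1.01 ± 0.20 in IRV. With the library set in the model, 1 gene of this list was called in IRP against NP and 22 in IRV against NV. Under scaling by library totals, 2 rose and none fell in IRP against NP, and 1 rose and 2 fell in IRV against NV, so the count of falls rests on the scaling.

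Of 23 tested PPAR alpha targets, 9 fell and 2 rose in IRP against NP and 8 fell and 1 rose in IRV against NV, with medians of -0.20 and -0.37. That is 47.8% called in either direction in IRP against NP, near the 43.6% of all tested genes, and 39.1% in IRV against NV, against 27%. Most of these calls were falls, where 24% of all tested genes were lower in IRP against NP and 11.1% in IRV against NV. Cyp4a10, a fatty acid hydroxylase, fell by 1.11 ± 0.24 in IRP and by 1.36 ± 0.24 in IRV on the log2 scale (adjusted p = 0.00159 and 0.000704, edgeR). Its neighbour Cyp4a14 fell by 2.24 ± 0.44 in IRP, where the 2 genes are similar enough that reads could be shared between them. Acadm, an enzyme of beta oxidation, fell by 1.16 ± 0.26 in IRV. Angptl4, a lipase inhibitor that also responds to hypoxia, rose by 2.06 ± 0.27 in IRP and by 1.42 ± 0.27 in IRV. Cpt1a, the carnitine transferase at the entry to mitochondrial oxidation, had -0.13 ± 0.14 in IRV against NV and was not called. With the library set in the model, 1 gene of this list was called in IRP against NP and 8 in IRV against NV. Under scaling by library totals, 10 rose and 1 fell in IRP against NP, and 4 rose and 3 fell in IRV against NV.

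**Figure D5:**
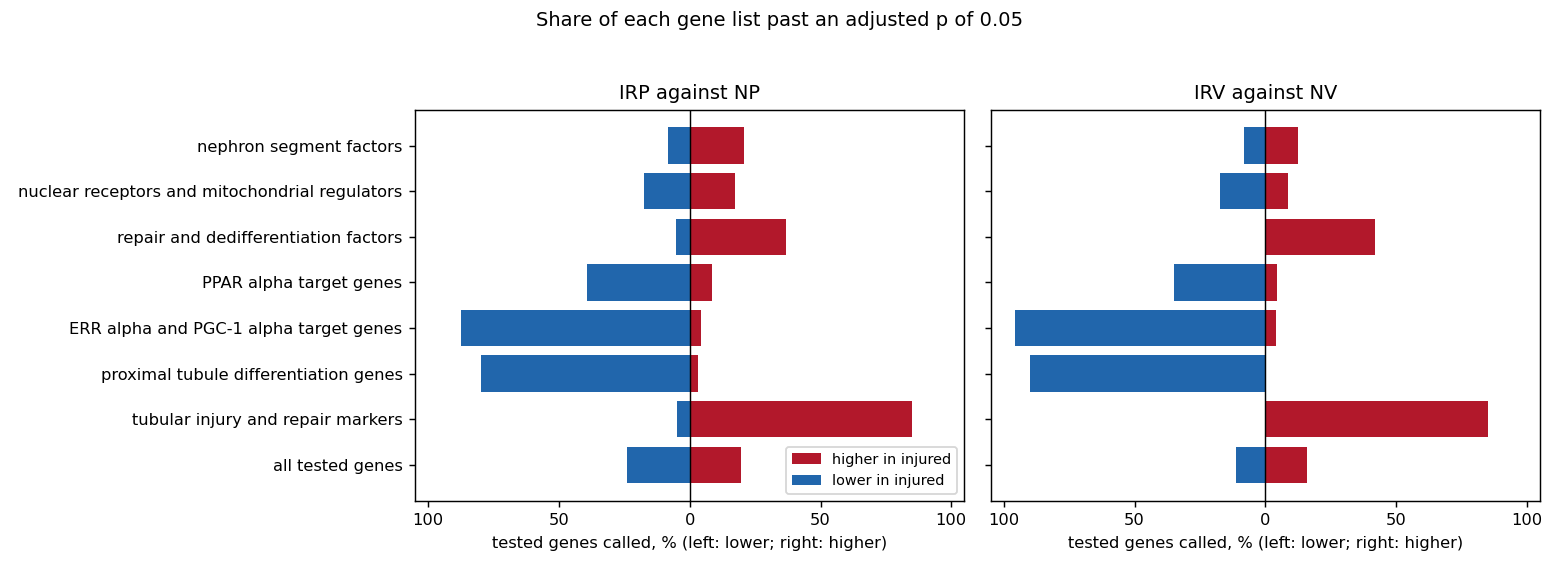
Share of the tested genes of each list, and of all tested genes, called higher (red, right) or lower (blue, left) in injured kidney at an adjusted p under 0.05, IRP against NP on the left and IRV against NV on the right. Under TMM scaling the ERR alpha and PGC-1 alpha targets and the proximal tubule genes reach far to the left, and the lists of transcription factors stay closer to all tested genes.

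Markers of immune cells, fibroblasts and podocytes were mostly higher in the injured groups, where Sox4 and Sox9 were higher too, and markers of the loop of Henle and distal tubule were partly lower. The summed level of 14 macrophage and monocyte markers was 481.7 to 1281 CPM in IRP and 91.5 to 172.9 CPM in NP, and 666.1 to 1084 CPM in IRV and 95.6 to 128.2 CPM in NV. Of them 13 of 14 rose in each comparison, or 92.9%. Some, such as Cd14 at 0.45 CPM in NV and 0.90 CPM in NP, passed the count filter only through the injured groups. For such markers the filter favoured a rise. Of all tested genes, 43.6% were called in IRP against NP (19.6% higher, 24% lower). In IRV against NV 27% were called (15.9% higher, 11.1% lower). The 14 fibroblast and pericyte markers summed to 1196 to 2942 CPM in IRP and 424.7 to 524.1 CPM in NP. They summed to 1611 to 2494 CPM in IRV and 297.4 to 550.6 CPM in NV, and 12 and 11 of them rose (85.7% and 78.6%). The 14 lymphocyte markers summed to 146 to 449.2 CPM in IRP and 57.6 to 66.2 CPM in NP, with 1 of them at 0 in every NP library. They summed to 181.7 to 444.3 CPM in IRV and 52.2 to 78.3 CPM in NV, with 2 at 0 in every NV library. Only 7 lymphocyte markers were tested, of which 5 rose in each comparison and 1 fell, Ms4a1 of B cells in IRP against NP. That is 85.7% called in IRP against NP and 71.4% in IRV against NV. Some of these 7, such as Cd4 at 0.67 CPM in NV and 1.08 CPM in NP, were likewise tested only through the injured groups. Igkc, an antibody light chain, made up much of the injured sums, at 184.6 ± 100.3 CPM in IRP and 3.91 ± 2.39 CPM in NP, and 144.1 ± 94.3 CPM in IRV and 2.15 ± 1.03 CPM in NV (SD, n = 4 each). Of 12 podocyte markers, among them Nes, which ran closest to Sox4, 10 rose in each comparison (83.3%). Their sum was 1048 to 1142 CPM in IRP and 595 to 633 CPM in NP, and 900.1 to 1329 CPM in IRV and 555 to 653 CPM in NV. The sums of 14 collecting duct markers overlapped between injured and uninjured groups, at 245.6 to 581.4 CPM in IRP and 414 to 450 CPM in NP, and at 302 to 425 CPM in IRV and 388 to 445 CPM in NV. Of these markers 3 rose and 1 fell in IRP against NP (28.6%), and 1 rose and 1 fell in IRV against NV (14.3%). Those shares are below the 43.6% and 27% of all tested genes. Aqp4 was at -3.32 and -3.54 on the log2 scale, and Krt18 at 1.94 and 1.6. Of 14 endothelial markers, 6 rose in IRP against NP (42.9%) and 4 in IRV against NV (28.6%) and none fell. The shares called were near the 43.6% and 27% of all tested genes, which were 19.6% and 15.9% higher. The endothelial sum was 581 to 690 CPM in IRP and 445 to 536 CPM in NP, and 536 to 708 CPM in IRV and 399 to 519 CPM in NV. Of 13 tested loop and distal tubule markers, 5 fell and none rose in each comparison, namely Egf, Calb1, Slc12a3, Kcnj10 and Slc8a1. That is 38.5% called in each, where 43.6% and 27% of all tested genes were called, 24% and 11.1% lower. The other 8 were not called, among them Umod and Slc12a1, which mark the loop of Henle. Umod had log2 fold changes of 0.14 in IRP against NP and -0.09 in IRV against NV, and Slc12a1 0.24 and -0.12. The list summed to 2150 to 5583 CPM in IRP and 4711 to 6022 CPM in NP, with overlap, and to 2712 to 3734 CPM in IRV and 5154 to 5730 CPM in NV, without overlap. The part of these cell types in the levels of the 8 members was not tested.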

How the data were processed

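The values used are the deposited expected counts, whole numbers per gene that are not normalised, for 16 kidney libraries. The submitters' processing notes name DESeq2 1.30.1, Salmon 1.3.0, Trim Galore 0.6.6 and FastQC 0.11.3 and the build GRCm39, without their roles. Per the labels' protocols the kit was directional. Symbols were matched by Ensembl ID for 40276 of 40472 genes. Promoter windows come from RefSeq tables of GRCm38.p6, which held 7 of the 8 members, and no coordinates of GRCm39 are given.

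The members and gene lists were chosen with earlier results of these data known. Groups follow the labels. Genes were kept by filterByExpr at a minimum count of 10, and edgeR 4.0.16 in R 4.3.3 fitted all 16 libraries with group as the only term. Alternatives were DESeq2 1.42.0, limma-voom 3.58.1, other scalings and filters, the replicate number as a block, the library set as a covariate and leaving out each library. The library set was divided at 3000000 total counts. The scripts were tested on simulated counts. Log2 CPM used a prior count of 2.

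Besides the members, the text names the up to 4 genes per list with the smallest p among those called and the up to 2 furthest from the threshold, from which some are taken here, plus the 3 genes closest to each member by Pearson correlation and Havcr1 and Slc34a1 as checks. Creb5, Ms4a1, Igkc, Egf, Calb1 and Slc12a3, and Ucp2 in IRV against NV, were named after their values were seen. The same holds for Foxm1, Cd14, Cd4, Kcnj10, Slc8a1, Umod, Slc12a1, Aqp4 and Krt18. Some genes of the lists are not reported here. Intervals on counts cover counting error only. No 2 libraries agreed within sampling noise.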

Additional observations from a re-analysis of the deposited data

Results flagged for a closer look

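In 2 of 32 groups of 4 libraries, 1 library stood apart from the others of its group by Dixon's criterion at the 95% level, which chance reaches in about 1 of 20 groups. Pax8 in NP replicate 4 was at 40.6 CPM, where the other NP libraries were at 65.3 to 68.5 CPM. Sox9 in NP replicate 2 was at 0.744 CPM, where the other NP libraries were at 2.88 to 3.26 CPM; at this depth the 4 NP libraries held 11 Sox9 counts in all.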

How the results depend on the processing

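Over all alternatives run, Sox4 and Sox9 stayed higher in both injury comparisons, and no member was called between PJ34 and vehicle with any tool. Of 8 members, 3 were called in IRV against NV without a filter on low counts (5 with it, of which 3 lower; without it none lower), and 2 in IRP against NP with the library set as a covariate (6 without it); the causes were not tested. Leaving out 1 library gave 5 to 6 members in IRP against NP and 4 to 6 in IRV against NV. Depth limits Sox9 most, with 11 counts in NP and 5 in NV.

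With the replicate number as a block, IRP against NP called 6 members and IRV against NV 4, since Ppargc1a was at -0.36 (adjusted p = 0.0508, edgeR); it changed no other call. Deviations of same-numbered libraries correlated at -0.23 to 0.259, above 0.1 in 5 of 24 pairs. Those of differently numbered ones correlated at -0.359 to 0.325, above 0.1 in 14 of 72. No pairing by number was seen, and this check cannot exclude one.

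Directions turned as follows on the log2 scale, the cause not tested unless the scaling itself moved all genes. With library totals only, IRP against NP gave 0.32 for Ppara, 0.16 for Ppargc1a and 0.015 for Esrra, IRV against NV gave 0.15 for Ppargc1a, and the interaction gave 0.0083 for Ppargc1a and 0.053 for Sox4. That scaling split all calls into 7012 higher and 1778 lower in IRP against NP (2671 and 3264 with TMM) and 5716 and 246 in IRV against NV (2162 and 1511). Without a filter, IRP against NP gave 0.20 for Ppara and 0.026 for Ppargc1a, and the interaction 0.078 for Ppargc1a, 0.0067 for Pax8 and 0.088 for Sox4. The medians of all genes were then -1.08 and -0.32, and Hnf4a was not called (adjusted p = 0.356 in IRP against NP and 0.0632 in IRV against NV). The library set as a covariate gave -0.11 for Pax8 in IRP against NP, -0.083 for Pax2 in IRV against NV, and -0.080 for Pax8 and -0.077 for Sox4 in IRP against IRV. Among shallow libraries only, Pax2 was at -0.085 in IRV against NV, and among deep ones only, Pax8 was at -0.085 and Sox4 at -0.083 in IRP against IRV. Sox4 in IRP against IRV was at -0.020 with limma-voom, -0.019 with only those groups in the fit and -0.0086 with the replicate block.

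Leaving out 1 library gave ranges across 0. Pax2 in IRV against NV spanned -0.040 to 0.25. In IRP against IRV Hnf4a spanned -0.045 to 0.24, Ppara -0.026 to 0.41 and Ppargc1a -0.031 to 0.17, each negative without IRP replicate 2, while Pax8 spanned -0.018 to 0.17 and Sox4 -0.16 to 0.14. In NP against NV Esrra spanned -0.22 to 0.058 and Sox4 -0.15 to 0.28, and in the interaction Ppargc1a spanned -0.16 to 0.038 and Sox4 -0.29 to 0.14.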
